A study of Rattus norvegicus with 15 samples.

Results

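The miR-17-92 polycistron is a single primary transcript that is cut into several mature microRNAs (miRNAs). Its products on the rat array used here were found by name as miR-17, miR-18a, miR-19a, miR-20a, miR-19b and miR-92a, which are 6 of the 350 rat miRNAs measured. They were followed in liver RNA from rats fed ethanol over a long period (EtOH) and from pair-fed rats given carbohydrate in its place (CHO). Liver was taken at the moment of partial hepatectomy (PHx), the surgical removal of part of the liver, and 1, 6, 12 or 24 h after it. Each of the 15 arrays was loaded with RNA pooled from 4 animals, with 3 EtOH and 4 CHO pools before PHx and 1 pool of each diet at each time after it. The labels name no genetic change in either diet, and give neither strain nor age.

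MiRNAs guide Argonaute proteins to messenger RNAs, mostly through bases 2 to 8 at their 5′ end, the seed, and lower the output of those messages. The products of the miR-17-92 transcript are best known for promoting cell division and survival, and the transcript is driven by Myc and E2F proteins in human and mouse cells. Partial hepatectomy sets the remaining liver cells, most of which are at rest, on the way to division, and chronic ethanol feeding is known to slow that response in rats. A transcript shared by several miRNAs sets a common supply, while each mature miRNA also depends on its own processing and decay.

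In the rat genome (RefSeq, build GRCr8) the 6 hairpins lie at chr15:98587848-98588632 on the plus strand, within 785 bases, in the order Mir17, Mir18a, Mir19a, Mir20a, Mir19b1 and Mir92a1. The mature sequences are shown 5′ to 3′ with the seed in capitals, because the seed sorts the 6 miRNAs into families and the few bases outside it decide what a probe can tell apart.
miR-17: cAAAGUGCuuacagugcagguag
miR-20a: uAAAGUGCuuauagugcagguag
miR-18a: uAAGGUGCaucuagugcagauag
miR-19a: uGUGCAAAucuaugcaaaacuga
miR-19b: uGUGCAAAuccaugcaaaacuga
miR-92a: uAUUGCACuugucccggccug
MiR-17 and miR-20a share the seed AAAGUGC and differ at 2 of 23 bases, C1U and C12U, counted from the 5′ end with miR-17 given first. MiR-19a and miR-19b share the seed GUGCAAA and differ by U11C, with miR-19a given first. Identical mature sequences of miR-17, miR-19b and miR-92a are also encoded on chromosome X, in Mir106a, Mir19b2 and Mir92a2, so an array signal for these 3 can come from either locus. The seed of miR-18a, AAGGUGC, is close to that of miR-17, and miR-92a alone of the 6 carries AUUGCAC. MiR-18a, miR-19a and miR-20a matched the chromosome 15 hairpins alone in this table.

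Between 108 and 131 miRNAs were detected per array. Signals were divided by each array's 75th percentile over probes detected on all arrays, which ran from 236.5 to 515.5 before scaling, and are given as scaled signal. That percentile was 288, 410 and 236.5 on the EtOH arrays before PHx and 397 to 516 on the CHO arrays before PHx. The lowest belonged to EtOH before PHx replicate 3, whose spots of one probe also varied most, the median coefficient of variation over detected probes being 36.6% there and between 6.75% and 8.62% elsewhere. The hepatocyte miRNAs miR-122, miR-192 and miR-194 were detected on 15 of 15 arrays and those of muscle and brain on 0. In whole liver, fewer cells of a type that holds a miRNA and less of it per cell cannot be told apart.

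Of the 6 products, miR-17, miR-20a, miR-19b and miR-92a were detected on 15 of 15 arrays and miR-19a on 11. MiR-18a was well above background on 0 of the 15 arrays with either of its 2 probes, which places it at or below the lowest reliable scaled signal of 9.61. Nor were the opposite strands miR-17-3p and miR-20a*, the only ones on the array, detected on any array. The 4 arrays without miR-19a were all EtOH: 2 of the 3 before PHx and those at 1 and 6 h. The 5 detected products, written below as the tested products, entered the fit across 134 miRNAs.

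The diets were first compared before surgery. EtOH livers held less miR-20a, miR-19b, miR-19a and miR-17 than CHO livers, between 16.2% and 38.0% less, and miR-92a was 15.8% lower without passing the test. MiR-20a, which in human cells represses the cell cycle activator E2F1 and the cell cycle inhibitor p21, was at 126, 122 and 123 in scaled signal in EtOH livers, against 192, 196, 185 and 191 in CHO livers. Every EtOH pool lay far below every CHO pool, with little spread inside either diet. Its log2 difference, EtOH minus CHO, was -0.63 (SE 0.0628), with a limma adjusted p of 8.57e-05.

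MiR-19b, which shares its seed with miR-19a, was at 148, 136 and 119 in EtOH livers, against 211, 232, 181 and 244 in CHO livers. The diets did not overlap, though CHO replicate 3 came closest to the EtOH pools. The log2 difference was -0.69 (SE 0.134, limma adjusted p 0.0104). MiR-19a was close to background, at 10.4, 10.4 and 13.7 in EtOH livers, where only replicate 2 was well above background, against 15.7, 16.4, 14.4 and 21.8 in CHO livers. Its highest EtOH value stood just under its lowest CHO value, and the log2 difference was -0.57 (SE 0.161, limma adjusted p 0.0334).

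MiR-17, the seed partner of miR-20a, was at 48.4, 49.9 and 58.0 in EtOH livers, against 60.7, 63.0, 60.8 and 63.5 in CHO livers. The diets did not overlap, but EtOH replicate 3 came near the CHO pools, and the log2 difference of -0.26 (SE 0.0771, limma adjusted p 0.0435) was smaller in size than that of miR-20a. MiR-92a, which represses integrin alpha 5 in mouse endothelium, was at 199, 185 and 214 in EtOH livers, against 259.7, 230.4, 251 and 208 in CHO livers. Its diets overlapped, and its log2 difference was -0.25 (SE 0.0940, limma adjusted p 0.0962).

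Thus 4 of the 5 tested products were called lower before PHx, where 12.7% of all tested miRNAs were called lower and 2.99% higher. The same 4 had no overlap between diets in the direction of lower EtOH, which held for 21.6% of all tested miRNAs. The median log2 difference of the tested products was -0.57, against -0.08 over all tested miRNAs. On slide 1, which held the pools of the 1 and 6 h sets, miR-17, miR-19a, miR-20a, miR-19b and miR-92a differed by -0.33, -0.63, -0.64, -0.64 and -0.35, and all 5 were called, where 18.7% of all tested miRNAs were called lower on that slide. On slide 2 the values in the same order were -0.10, -0.37, -0.62, -0.82 and -0.09. That slide held 1 EtOH and 2 CHO arrays before PHx, and no call is read from so few arrays.

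Markers of other cells also differed before PHx, and their part in these differences was not tested. Of the leukocyte miRNAs, of which 4 of the 5 on the array were detected, the summed scaled signal was 299 to 315 in EtOH and 327 to 371 in CHO livers, and 1 of 4 tested, miR-142-3p, fell (-0.50, limma adjusted p 0.0435). Of the biliary and epithelial list 2 of 3 tested fell, and its sum was 52.4 to 60.6 in EtOH and 72.2 to 88.1 in CHO livers, with miR-200c and miR-141 detected on no array. The stellate and mesenchymal sum was 525 to 594 in EtOH and 617 to 668 in CHO livers with 0 of 5 called, and the endothelial miR-126 was at 1034 to 1103 in EtOH and 1169.8 to 1263 in CHO livers. Sums of the hepatocyte list (35965 to 41952 in EtOH, 36154 to 42878 in CHO livers) and of the erythroid list (629 to 898 in EtOH, 618 to 1229.6 in CHO livers) overlapped.

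The call of miR-17 was lost with slide as a block (limma adjusted p 0.0532) and without any of 12 single arrays (0.0610 to 0.140), and held without EtOH before PHx replicate 3, EtOH 24 h or CHO 24 h. That of miR-19a was lost without EtOH replicate 1 or 2 or CHO replicate 1, 2 or 4 before PHx, and both had the opposite sign under normexp background correction, which with spot backgrounds left 0 of the 5, and 0 of all tested miRNAs, called. By contrast, miR-20a and miR-19b were called whichever array was left out. The call of miR-19b was lost with the 75th percentile over all probes, quantile normalization or the authors' values (limma adjusted p 0.0997, 0.0644 and 0.128). MiR-20a kept its call in these settings.

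**Figure D1:**
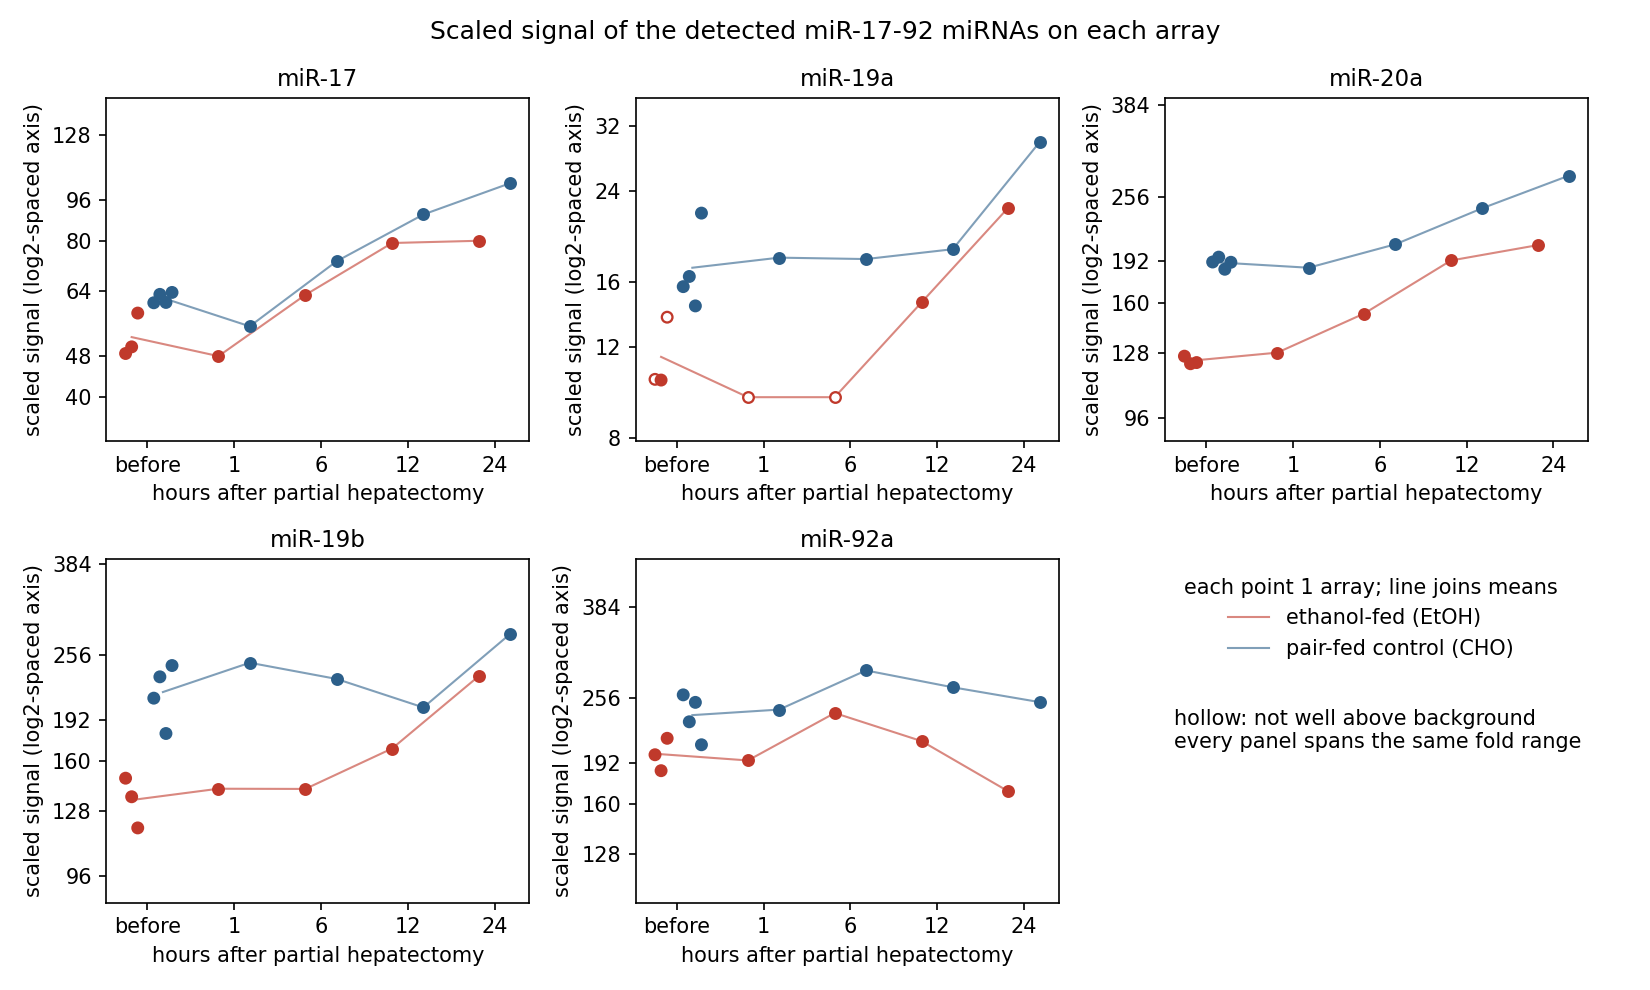
Scaled signal of the 5 detected miR-17-92 products on each array (log2-spaced vertical axis, the same fold range in every panel) before and 1 to 24 h after partial hepatectomy. Each point is 1 array of RNA from 4 pooled animals, EtOH left of CHO, hollow where the miRNA was not well above background, and lines join group means. EtOH lies below CHO at each time, except that the pools of miR-92a before surgery overlap, and miR-17 and miR-20a climb in both diets while miR-92a peaks at 6 h.

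After surgery the diets were compared over the 4 times together, with 1 pool of each diet at each time. EtOH livers again held less miR-20a, miR-19b and miR-92a than CHO livers, by 23.1% to 29.8%, miR-19a was called lower too, with 2 of its 4 EtOH arrays not well above background, and each of the 5 tested products was lower in EtOH at 4 of 4 times. EtOH below CHO at all 4 times was found for 27.6% of all tested miRNAs. MiR-20a was at 128, 152, 193 and 206 in EtOH livers at 1, 6, 12 and 24 h, against 187, 207, 243 and 281 in CHO livers. The EtOH pool at 12 h was thus close to the CHO pools before surgery, and the log2 difference over the times was -0.44 (SE 0.0582, limma adjusted p 0.00129).

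MiR-19b was at 141, 141, 169 and 233 in EtOH livers at 1, 6, 12 and 24 h, against 247, 230.1, 203 and 281 in CHO livers. The gap was wide at 1 and 6 h and narrower at 12 and 24 h, with fold differences of 1.75, 1.63, 1.20 and 1.21 lower in EtOH. The log2 difference over the times was -0.51 (SE 0.124, limma adjusted p 0.0318). MiR-19a was not well above background in EtOH livers at 1 and 6 h, where it was at least 1.86-fold and at least 1.59-fold lower than in CHO livers. It was measured in both diets at 12 h (14.6 in EtOH, 18.5 in CHO) and at 24 h (22.3 in EtOH, 29.8 in CHO), and over the times it differed by -0.63 with the undetected arrays at the floor of 9.61 (SE 0.149, limma adjusted p 0.0318). With undetected values raised to the lowest detected signal of their own array, the difference was -0.58 and still called (adjusted p 0.0363), so its size is only a bound.

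MiR-92a was at 194, 239.5, 211 and 169 in EtOH livers at 1, 6, 12 and 24 h, against 243, 289, 269 and 251 in CHO livers. Its gap was widest at 24 h, at 1.49-fold lower in EtOH, and its log2 difference over the times was -0.38 (SE 0.0870, limma adjusted p 0.0318). MiR-17 was at 47.9, 62.8, 79.1 and 79.9 in EtOH livers, against 54.7, 73.0, 89.8 and 103 in CHO livers, with a log2 difference of -0.24 (SE 0.0714) that did not pass (limma adjusted p 0.0598). At each time the EtOH pool was the lower, and the EtOH pools at 12 and 24 h lay above the CHO pools up to 6 h.

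So 4 of the 5 tested products were called lower after PHx, where 4.48% of all tested miRNAs were called lower and 2.99% higher, and their median log2 difference was -0.44 against -0.05 over all tested miRNAs. Within slide 1 (1 and 6 h) miR-17, miR-19a, miR-20a, miR-19b and miR-92a differed by -0.20, -0.89, -0.49, -0.76 and -0.30, the value of miR-19a resting on EtOH arrays at the floor, and 3 were called, where 12.7% of all tested miRNAs were called lower. Within slide 2 (12 and 24 h) they differed by -0.28, -0.38, -0.39, -0.27 and -0.46, and 0 were called with limma, where 0% of all tested miRNAs were called lower. MiR-20a and miR-92a had an unadjusted limma p under 0.05 there, and the share of all tested miRNAs at that threshold is not given here. The leukocyte sum was 335 to 367 in EtOH and 319 to 447 in CHO livers after PHx, and the erythroid sum 873 to 1209.9 in EtOH and 355 to 847 in CHO livers. The biliary and epithelial sum (60.1 to 78.4 in EtOH, 60.8 to 80.0 in CHO livers) overlapped between diets. So did the stellate and mesenchymal sum (513 to 712 in EtOH, 579 to 689 in CHO livers) and miR-126 (1005 to 1192 in EtOH, 1137 to 1248 in CHO livers). The part of these markers in the differences was not tested.

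MiR-20a alone of the 5 was called without the EtOH or CHO array of 1 or 6 h, and likewise when replicate 1 or 2 of the CHO arrays before PHx was left out, and miR-92a also lost its call without either array of 24 h (-0.31, limma adjusted p 0.0854). With the 75th percentile taken over all probes, miR-17 stood at 0.01 and 0 of the 5 were called, while of all tested miRNAs 0 were called lower and the median was 0.19.

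The test of whether the diet difference itself changed after surgery called 0 of the 5 tested products and 0% of all tested miRNAs. The change in log2 difference, after minus before, was 0.19 for miR-20a (SE 0.0856), with an unadjusted p of 0.0512 and a limma adjusted p of 0.638. It was 0.18 for miR-19b (SE 0.183), 0.02 for miR-17 (SE 0.105), -0.07 for miR-19a (SE 0.220) and -0.13 for miR-92a (SE 0.128), with adjusted p of 0.854 to 0.986. At single times, where limma took the lone pools to vary like those before PHx, miR-20a at 1 h was the 1 diet difference called among the 5 (-0.54, adjusted p 0.0450), and it was also the 1 of 134 miRNAs (0.746%) called lower there. At 6, 12 and 24 h 0 of the 5 were called, against 0%, 3.73% and 0% of all tested miRNAs called lower, and miR-20a had unadjusted p of 0.00103 to 0.00460 there.

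**Figure D2:**
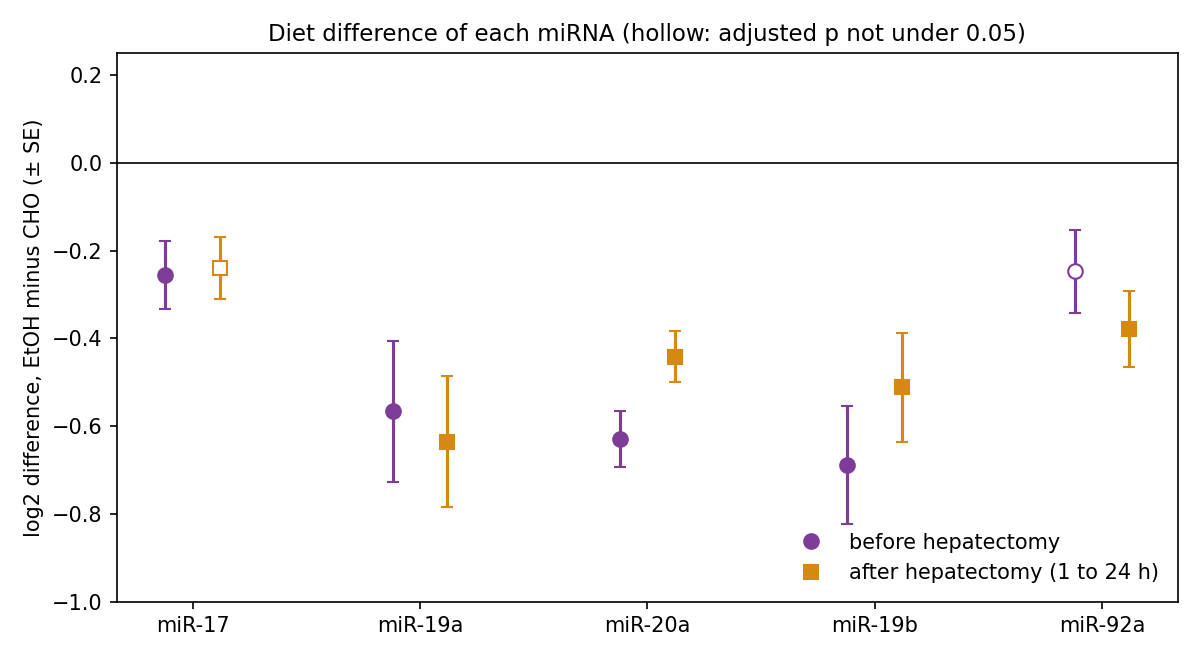
Log2 difference, EtOH minus CHO, of the 5 tested miR-17-92 products before partial hepatectomy (3 EtOH and 4 CHO pools) and over the 4 times after it (4 pools of each diet), with the SE of the limma fit. With this scaling all 10 differences lie below 0, and hollow symbols (miR-92a before, miR-17 after) mark those whose adjusted p was not under 0.05.

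The course after surgery was next followed with both diets averaged. MiR-17 and miR-20a rose at 12 and 24 h, miR-19a and miR-19b rose at 24 h, and miR-92a was not called at any time. In EtOH livers miR-17 averaged 52.1 ± 5.13 in scaled signal before PHx (SD, n = 3) and was at 47.9, 62.8, 79.1 and 79.9 at 1, 6, 12 and 24 h. In CHO livers it averaged 62.0 ± 1.48 before PHx (SD, n = 4) and was at 54.7, 73.0, 89.8 and 103 at the same times. The 1 h array was the lowest of its diet in both diets, and all later ones lay above every pool before PHx of that diet.

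At 12 h the log2 change from before PHx was 0.57 for miR-17 (SE 0.0811) and 0.50 for miR-20a (SE 0.0661), both with a limma adjusted p of 0.000633, where 5.97% of all tested miRNAs were called higher. MiR-19a (0.25), miR-92a (0.13) and miR-19b (0.12) were not called there. At 24 h the changes were 0.68 for miR-17 (SE 0.0811, limma adjusted p 0.000170), 0.65 for miR-20a (SE 0.0661, adjusted p 6.94e-05), 0.90 for miR-19a (SE 0.169, adjusted p 0.00409) and 0.59 for miR-19b (SE 0.141, adjusted p 0.0150). That is 4 of 5 tested products, where 11.9% of all tested miRNAs were called higher, and a median of 0.65 against 0.02 over all tested miRNAs.

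MiR-20a averaged 124 ± 2.24 before PHx in EtOH livers (SD, n = 3) and 191 ± 4.22 in CHO livers (SD, n = 4). Its EtOH pool at 24 h, at 206, was above all CHO pools before PHx, and its CHO pool at 24 h, at 281, was the highest of all. MiR-19b averaged 134 ± 14.8 in EtOH livers (SD, n = 3) and 217 ± 27.9 in CHO livers before PHx (SD, n = 4), and its values at 1 and 6 h in EtOH lay inside the spread of the EtOH pools before PHx. In CHO livers its values at 6 and 12 h lay inside the spread of the CHO pools before PHx, and the 1 h pool just above it. MiR-92a averaged 199.5 ± 14.3 in EtOH livers (SD, n = 3) and 237 ± 23.1 in CHO livers before PHx (SD, n = 4). In both diets its highest array was that of 6 h, where the log2 change was 0.28 (SE 0.0989, limma adjusted p 0.135), and at 24 h the change was -0.07 (SE 0.0989, adjusted p 0.753).

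At 1 h and 6 h 0 of the 5 tested products were called, against 0% of all tested miRNAs called higher at 1 h and 4.48% at 6 h, and none of the 5 had an unadjusted p under 0.05 at 1 h. At 6 h miR-17 (0.26) and miR-20a (0.21) each had a limma adjusted p of 0.0896, with unadjusted p of 0.00916 and 0.00857. Set against the pools before PHx on the same slide, miR-17 was called at 6 h (0.30, limma adjusted p 0.0192), where 10.4% of all tested miRNAs were called higher. On slide 2 neither it nor miR-20a was called at 12 h (0.49 and 0.51, limma adjusted p 0.0699 and 0.0541), against 4.48% of all tested miRNAs. At 24 h miR-17, miR-20a and miR-19b were called there but not miR-19a (0.73, limma adjusted p 0.0723), against 6.72%. The difference between the later and the earlier times was tested directly as the mean of 12 and 24 h minus the mean of 1 and 6 h. It was 0.57 for miR-17 (SE 0.0714, limma adjusted p 0.000419), 0.46 for miR-20a (SE 0.0582, adjusted p 0.000419) and 0.66 for miR-19a (SE 0.149, adjusted p 0.0221), so 3 of the 5 were called, where 5.97% of all tested miRNAs were. Both EtOH arrays of the earlier times hold miR-19a at the floor, and with undetected values at the lowest detected signal of their array its difference was 0.60 (adjusted p 0.0240). MiR-19b (0.25, adjusted p 0.336) and miR-92a (-0.11, adjusted p 0.559) were not. The later pools were all on slide 2 and the earlier ones on slide 1, and with slide as a block miR-19a was not called (0.41, adjusted p 0.431).

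**Figure D3:**
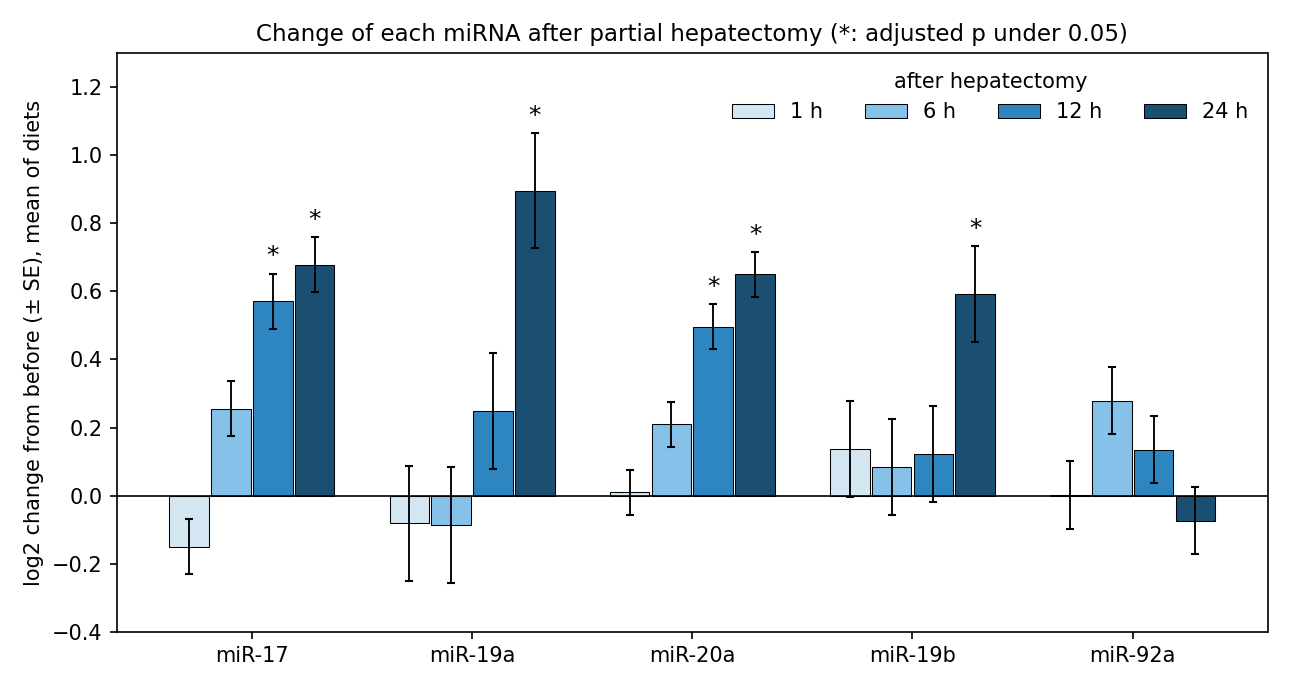
Log2 change from before partial hepatectomy of the 5 tested miR-17-92 products at 1, 6, 12 and 24 h, averaged over diets, with the SE of the limma fit. Asterisks mark an adjusted p under 0.05, which miR-17 and miR-20a have at 12 and 24 h, miR-19a and miR-19b at 24 h, and miR-92a at no time.

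Inside each diet a time after PHx has 1 array, which limma took to vary like the pools before PHx. On that assumption miR-17 and miR-20a were called at 12 and 24 h in both diets. In EtOH livers miR-17 rose by 0.61 in log2 signal at 12 h and 0.62 at 24 h, and miR-20a by 0.64 and 0.74, with limma adjusted p of 0.00210 to 0.0348. In CHO livers miR-17 rose by 0.54 at 12 h and 0.74 at 24 h, and miR-20a by 0.35 and 0.56, with adjusted p of 0.00974 to 0.0318. The other 3 did not pass at any time in either diet, and whether products differ in this was not tested here. So 2 of the 5 were called at 12 h in EtOH and in CHO livers, against 5.97% and 6.72% of all tested miRNAs called higher, and 2 of 5 at 24 h, against 7.46% and 5.22%. The change of miR-20a at 12 h was 0.29 more in EtOH than in CHO livers (SE 0.0895, unadjusted p 0.0151), which did not pass (limma adjusted p 0.202), nor did any of the 5 at any time.

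For 7 of the 8 pools, the animal identifiers in the labels tie the array after PHx to an array of the same 4 animals before it. MiR-20a was higher after than before in 6 of these 7 pools, miR-17, miR-19a and miR-19b in 5 and miR-92a in 4. In the 3 pools of 12 and 24 h miR-17 was higher by 0.45, 0.56 and 0.70 in log2 signal and miR-20a by 0.65, 0.39 and 0.56, in the order EtOH 12 h, CHO 12 h and CHO 24 h. MiR-19a was higher by 0.09, 0.36 and 0.45 and miR-19b by 0.51, 0.17 and 0.20 in the same pools. MiR-92a was near its value before PHx in the 12 h pools (-0.02 and 0.10) and 0.27 higher in the CHO 24 h pool.

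With the pool as a block, which left 2 residual degrees of freedom, 0 of the 5 were called with limma at 12 h, at 24 h or between later and earlier times. Of all tested miRNAs 2.24% were called higher at 12 h, and 0% at 24 h or between later and earlier times. In each comparison 2 of the 5 had an unadjusted limma p under 0.05, and miR-17 (0.51 and 0.72 at 12 and 24 h) and miR-20a (0.52 and 0.65) kept their size. The share of all tested miRNAs at that unadjusted threshold is not given here. MiR-19a at 24 h shrank to 0.32 and miR-19b to 0.22 there, and without the EtOH 24 h array, whose own pool before PHx was not analysed here, both lost their call (0.75 and 0.43).

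As products of one transcript, the 5 were then set against each other inside each array. The log2 ratio of 2 products above the floor on the same array does not depend on the factor by which the array is scaled. Where a product is at the floor, as miR-19a in EtOH at 1 and 6 h, the ratio does depend on that factor. Only the difference of a ratio between groups was read, since levels of different probes cannot be compared. All 10 pairs were tested for diet, with diet labels permuted within each time, and for the 12 and 24 h pools against those before PHx within each diet. These 20 exact two-sided permutation tests were adjusted together, and the smallest p they allow is 0.00179 for diet and 0.00667 for time.

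The ratio of miR-17 to miR-20a, which share a seed, was higher in EtOH than in CHO livers. Taken relative to the mean of the CHO pools before PHx, its log2 value before PHx was 0.24, 0.33 and 0.54 in EtOH livers, against -0.03, -0.01, 0.01 and 0.03 in CHO livers. After PHx it was 0.20, 0.35, 0.34 and 0.25 in EtOH livers at 1, 6, 12 and 24 h, against -0.15, 0.12, 0.19 and 0.18 in CHO livers. The ratio was above CHO at 5 of 5 times, and the EtOH pools stayed within 0.20 to 0.54 throughout while the CHO pools from 6 h on lay above all earlier CHO pools. The diet difference was 0.28 (exact permutation p 0.00179, the smallest possible, adjusted p 0.0357), with arrays permuted as if independent although 7 pools gave 2 arrays each. With diet swapped between whole pools of a pair-fed set, the exact permutation p was 0.125, the smallest that its 16 arrangements allow, so this design cannot call the ratio by pools. By contrast, the later pools had a ratio different from that before PHx by 0.06 (exact permutation p 0.447).

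MiR-17 over miR-19a also differed by diet, by 0.36 (exact permutation p 0.00536, adjusted p 0.0444), and was higher in EtOH at 5 of 5 times by 0.05 to 0.70. Its values at 1 and 6 h in EtOH rest on miR-19a at the floor, and by whole pools its exact permutation p was also 0.125. The diet differences of 2 more pairs missed the threshold, miR-17 over miR-19b (0.35) and miR-20a over miR-92a (-0.21), each with an exact permutation adjusted p of 0.0536. The pairs miR-19a with miR-19b (-0.01), miR-20a with miR-19b (0.06), miR-17 with miR-92a (0.07) and miR-19a with miR-20a (-0.07) had exact permutation p of 0.271 to 0.939.

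Over time the ratio that was called was miR-17 over miR-92a, the first and the last hairpin of the transcript. Relative to the mean of the CHO pools before PHx, the log2 ratio was 0.51 and 0.85 in EtOH livers at 12 and 24 h, against -0.11, 0.04 and 0.05 before PHx. In CHO livers it was 0.35 and 0.65 at 12 and 24 h, against -0.17, 0.06, -0.12 and 0.22 before PHx. In both diets the later pools lay above every pool before PHx, and the difference was 0.59 (exact permutation p 0.00667, the smallest possible, adjusted p 0.0444). Arrays were permuted as if independent, although the EtOH 12 h, CHO 12 h and CHO 24 h pools also gave arrays before PHx. All later arrays were on slide 2, while those before PHx were on both slides, and the change over time was not tested by whole pools. MiR-20a over miR-92a differed by 0.53 with an exact permutation adjusted p of 0.0536, and miR-19a over miR-92a by 0.53 with 0.133.

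Leaving out a single array lowers the number of permutations of the tests that use it, and all 20 tests are adjusted together. The miR-17 over miR-92a call was lost without each of the 15 arrays. Arrays of 1 and 6 h do not enter that test. Without any of these its difference stayed at 0.59, and its exact permutation adjusted p became 0.0667 only through the tests adjusted with it. Both diet calls were lost without each array other than the EtOH and CHO ones of 24 h. The 3 differences themselves stayed within 0.51 to 0.67 (miR-17 over miR-92a), 0.24 to 0.31 (miR-17 over miR-20a) and 0.30 to 0.40 (miR-17 over miR-19a).

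**Figure D4:**
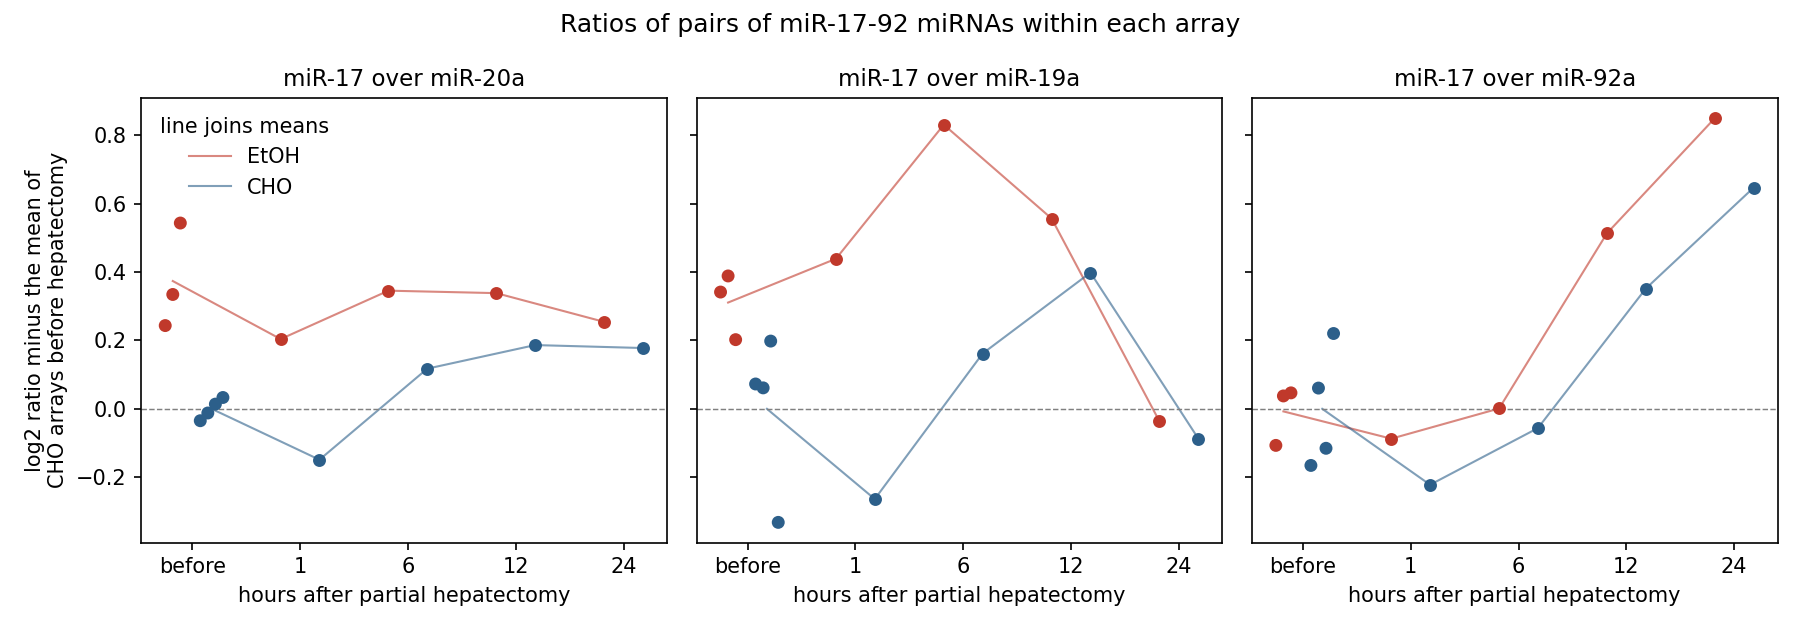
Log2 ratio of miR-17 to miR-20a, miR-19a and miR-92a on each array, minus the mean ratio of the 4 CHO pools before partial hepatectomy. EtOH stands left of CHO, each point is 1 array, and lines join means. EtOH lies above CHO at all 5 times in the panels for miR-20a and miR-19a, and both diets climb from 12 h on in the panel for miR-92a.

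Across the 15 arrays miR-17 with miR-20a, miR-19a with miR-19b, miR-20a with miR-19b and miR-19a with miR-20a had Pearson r of 0.86 to 0.87. MiR-17 had r of 0.77 with miR-19a and 0.58 with miR-19b. MiR-92a had r of 0.27 to 0.53 with the others, so its highest value was near that of miR-17 with miR-19b. Without the arrays EtOH before PHx replicate 2 and EtOH 1 h, the first 4 pairs had 0.81 to 0.84. There, miR-17 had 0.68 with miR-19a and 0.46 with miR-19b, and miR-92a had 0.04 to 0.37 with the others. These values are descriptions over arrays that share diet, time and scaling. Ranked over the 10 groups of diet and time, miR-20a separated most clearly, with 7 of 9 gaps between neighbouring groups larger than the pooled SD before PHx of 0.03 in log2 signal. Its order ran upward from EtOH before PHx, EtOH 1 h, EtOH 6 h, CHO 1 h, CHO before PHx, EtOH 12 h, EtOH 24 h, CHO 6 h, CHO 12 h to CHO 24 h, and the gaps from CHO before PHx to EtOH 12 h and from EtOH 24 h to CHO 6 h were within that SD.

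For miR-17 6 of 9 gaps exceeded its SD of 0.09, with EtOH 1 h lowest and CHO 24 h highest, and the pairs EtOH before PHx and CHO 1 h, CHO before PHx and EtOH 6 h, and EtOH 12 and 24 h did not differ beyond it. For miR-19a and miR-19b 3 of 9 gaps exceeded SDs of 0.25 and 0.18, the EtOH groups up to 6 h forming the lowest block of each and CHO 24 h standing highest. For miR-92a 2 of 9 gaps exceeded its SD of 0.13. Its EtOH 24 h pool was the lowest of all 10 groups and CHO 6 h the highest, and the CHO groups with EtOH 6 h formed an unbroken upper block.

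The probes of one product did not always give the same size or call. Each product had 2 probes, and the other probe of miR-20a, miR-19b, miR-17 and miR-92a was detected on 15 of 15 arrays. Their diet differences before PHx were -0.68, -0.56, -0.28 and -0.48, with the sign of the brighter probes. The other probe of miR-19a was detected on 2 arrays, so miR-19a rests on 1 probe. With the other probes miR-92a was called lower before PHx (limma adjusted p 0.0311) and miR-17 was not (0.0823). At 24 h miR-92a stood at 0.05 with its other probe, against -0.07 with the brighter one. The time call of miR-17 over miR-92a was also lost with the other probes (0.57, exact permutation adjusted p 0.133).

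The paralogous miR-106b-25 transcript, which in human and mouse lies inside the Mcm7 gene, makes miRNAs with the same seeds, which were followed as the other genes of the family. Their sequences show which seed each one carries.
miR-106b: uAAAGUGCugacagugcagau
miR-93: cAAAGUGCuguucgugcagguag
miR-25: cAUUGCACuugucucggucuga
MiR-106b and miR-93 carry the seed of miR-17 and miR-20a, and miR-25 that of miR-92a. Of the 9 paralogous names looked up, 5 were on the array, and miR-20b-5p and miR-363 of the chromosome X cluster were detected on no array, which left these 3 to test. Before PHx 1 of the 3 fell, against 12.7% of all tested miRNAs, and none was called after PHx for diet. At 24 h 2 rose, against 11.9% of all tested miRNAs, and 2 were called higher at the later than at the earlier times, against 5.97%.

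MiR-106b was at 30.4, 32.1 and 29.8 in scaled signal in EtOH livers before PHx, against 37.0, 37.1, 35.2 and 41.8 in CHO livers. The diets did not overlap, and its log2 difference was -0.29 (SE 0.0759, limma adjusted p 0.0213), between those of miR-17 and miR-20a. After PHx the difference was -0.16 (limma adjusted p 0.152). At 24 h it was at 44.7 in EtOH and 52.5 in CHO livers, and it rose by 0.51 over before PHx (SE 0.0798, adjusted p 0.00109), against 0.14 at 12 h (adjusted p 0.448).

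MiR-93 was at 55.3, 64.6 and 54.5 in EtOH livers before PHx, against 63.0, 60.0, 66.0 and 66.2 in CHO livers, so that its diets overlapped (-0.14, limma adjusted p 0.450). It rose by 0.45 by 24 h (SE 0.115, adjusted p 0.0211) and was at 71.7 in EtOH and 96.8 in CHO livers there. MiR-25 was not called in any comparison, with 0.02 for diet before PHx (adjusted p 0.973), 0.12 for diet after PHx (0.503) and 0.20 at 24 h (0.364), and its EtOH value at 6 h, 183, was the highest of its 15 arrays. At 24 h all 4 tested miRNAs of these transcripts with the seed AAAGUGC were called higher, against 11.9% of all tested miRNAs. So were miR-19a and miR-19b, with GUGCAAA, while neither miR-92a nor miR-25, with AUUGCAC, was called. With the pool as a block 0% of all tested miRNAs were called higher at 24 h.

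**Figure D5:**
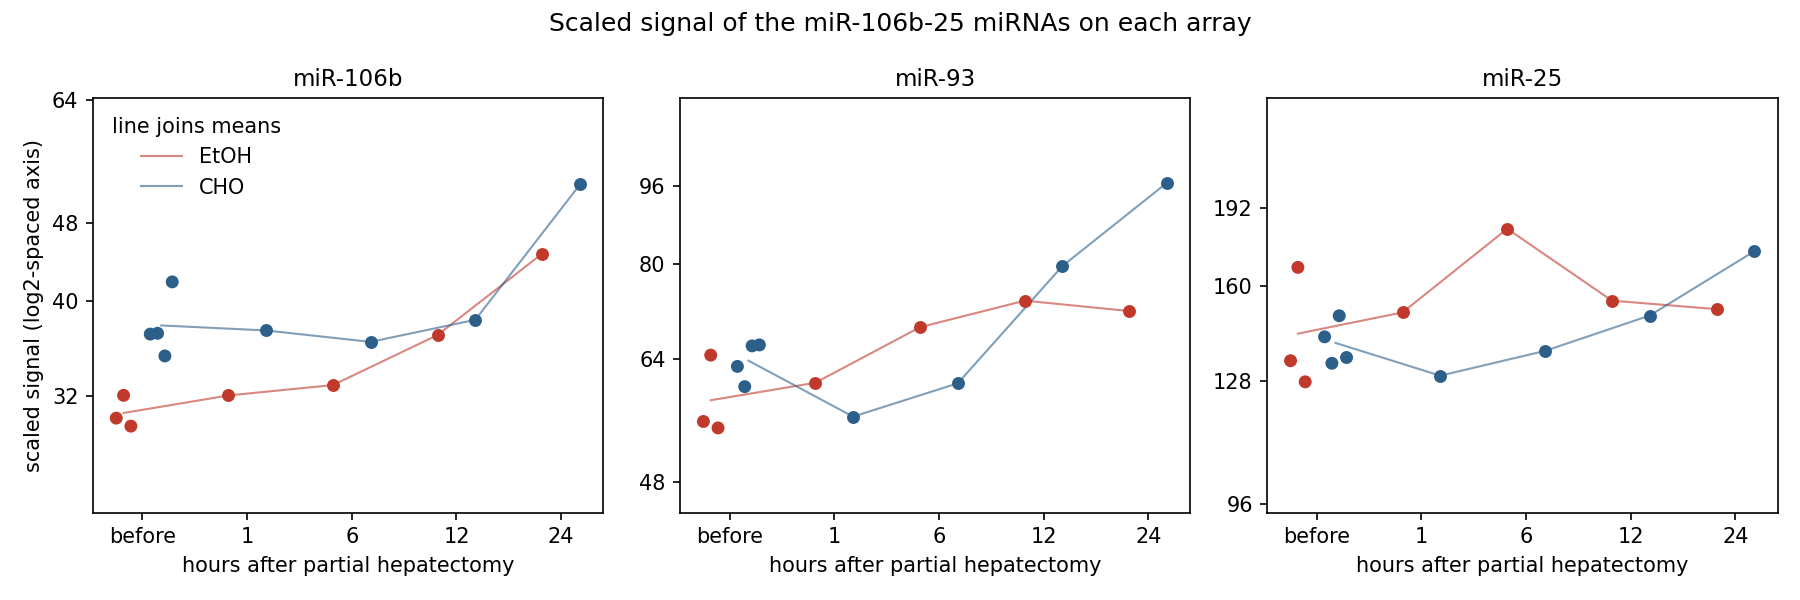
Scaled signal of miR-106b, miR-93 and miR-25 on each array (log2-spaced vertical axis) before and 1 to 24 h after partial hepatectomy, EtOH left of CHO. Each point is 1 array and lines join group means. MiR-106b separates the diets before surgery, miR-106b and miR-93 are highest in CHO livers at 24 h, and miR-25 shows the diets mixed.

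By Pearson correlation over the 15 arrays with the mean of the 5 tested products, each centred on its own mean, the most alike of the other tested miRNAs were miR-532-5p (r 0.89), miR-106b (0.89), miR-350 (0.89), miR-450a (0.86) and miR-10b (0.76). Without the arrays EtOH before PHx replicate 2 and EtOH 1 h, the 2 farthest from the median of that mean, r was 0.86, 0.90, 0.91, 0.81 and 0.74 in the same order. The least alike were miR-107 (-0.84), miR-152 (-0.80) and miR-31 (-0.75), with -0.77, -0.74 and -0.75 without those arrays. These correlations describe arrays that share diet, time, slide and scaling.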

How the data were processed

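Scanner files of 15 single-colour Cy3 arrays on 2 slides held the linear intensity of each spot, background-corrected by Agilent Feature Extraction, per the file headers (version 10.5.1.1) and the submitters' processing notes (version 10.7.3.1). A value table deposited by the authors gives 1 log2 value per miRNA and array, whose method is not given in the sources used here. At 72 of its top 100 ranks the sorted values were the same in all columns. It served as an alternative.

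Outlier spots (2503, 2.38%) and control spots were left out. No spot of a product was saturated. The mean signal of each of 938 probes was set against the 75th percentile of that array's 185 probes detected on all arrays, multiplied by the mean of these percentiles, floored at 9.61 and put on the log2 scale. Detected means that at least a share of 0.5 of the spots was well above background. The brightest probe stood for its miRNA, and 134 miRNAs detected on at least 3 arrays were tested. A fold given as at least a value is the mean signal of the bright group over the lowest detected signal on the dim array.

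The fit by limma 3.58.1 (R 4.3.3) took in 15 arrays and had 1 term for diet before PHx, 1 for diet after it and 1 for each time, which left 8 residual degrees of freedom. A fit of 10 cells served single times and diets. Benjamini-Hochberg adjustment ran over 134 miRNAs, with calls under 0.05. Pair ratios were tested in Python 3.11.15. The code was tested on simulated data. P-values of the fit measure the spread of arrays around it, with arrays of one pool taken as independent. After PHx, with 1 pool of each diet at each time, there is no spread between replicate pools to measure. The number of pools limits the precision, and the 1 and 6 h pools of each diet share 1 animal. The pairing of arrays before and after PHx comes from the animal identifiers. Deviations of the paired arrays from their group correlated at -0.10 to 0.24, and the pool as a block was an alternative. Others were scaling, probe summary, normexp (on median spot signals, since the files hold no mean), filters, slide and leaving out each array. Using the other probe of each product, raising undetected values to their array's lowest detected signal and swapping whole pools were chosen after seeing the data. The named miRNAs are all products, their other strands, the paralogs, and the 5 most and 3 least alike miRNAs. The products and lists were chosen with earlier results of these data known.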

Additional observations from a re-analysis of the deposited data

How the results depend on the processing

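The numbers below count tested miR-17-92 products, or pairs of them, that were called with another setting, and, where so stated, all tested miRNAs. For diet before PHx 4 became 1 with the 75th percentile over all probes or in the authors' values, 2 with quantile normalization, without the filter on dim probes or with normexp and 1 background value per array, 0 with normexp on spot backgrounds or within slide 2, and 2 to 4 without single arrays. For diet after PHx 4 became 0 with the 75th percentile over all probes, without scaling, with either normexp or within slide 2, 1 with quantile normalization, the authors' values or no filter, and 1 to 5 without single arrays. Here 6 of all tested miRNAs called lower became 0 with the 75th percentile over all probes, either normexp or slide 2 alone. They became 2 without scaling, and 1 with quantile normalization, the authors' values or no filter. At 6 h 0 became 1 with total signal, no filter or slide 1 alone, and 0 to 1 without single arrays (EtOH before PHx replicate 3). There, 6 of all tested miRNAs called higher became 7 with total signal, 4 of 350 without the filter and 14 on slide 1 alone. At 12 h 2 became 0 with the 75th percentile over all probes, quantile normalization, either normexp, slide 2 alone or the pool as a replicate block, and 1 without scaling or in the authors' values. At 24 h 4 became 2 in the authors' values, 0 with normexp on spot backgrounds, 1 with the other normexp, 0 with the pool block, and 2 to 4 without single arrays (EtOH 24 h). Of all tested miRNAs, 16 called higher became 7 in the authors' values, 0 with normexp on spot backgrounds or the pool block, and 3 with the other normexp. Between later and earlier times 3 became 0 without scaling, with normexp on spot backgrounds or the pool block, 1 with the other normexp, and 2 to 3 without single arrays. Of all tested miRNAs, 8 called higher became 0 without scaling, with normexp on spot backgrounds or the pool block, and 2 with the other normexp. The 4 calls at 24 h inside the diets became 0 with the 75th percentile over all probes, no scaling, total signal, normexp with 1 background or slide 2 alone, 2 in the authors' values or with slide as a block, and 1 to 4 without single arrays (CHO before PHx replicates 1 and 2). Counts of all tested miRNAs for these calls inside the diets are not given here. The 2 pairs called for diet became 1 in the authors' values, 6 with normexp, 0 to 3 without single arrays and 0 with diet swapped between whole pools (a replicate block, smallest possible exact permutation p 0.125). The 1 pair called for time became 0 in the authors' values or with the other probes, 3 with the mean of probes, 4 with normexp, and 0 without any single array. There, fewer permutations in this test, or in the diet tests adjusted with it, limit the adjusted p. Treating the pool as a random block left each count of the fit over times unchanged (correlation 0.114), and a block for each pair-fed set gave 3 for diet before PHx, with miR-17 and miR-19a lost (limma adjusted p 0.103 each) and miR-92a gained (0.0407). With undetected values at the lowest detected signal of their array, chosen after seeing the data, the counts stayed, except that 6 were called at 24 h inside the diets (miR-19a and miR-19b in EtOH added). Signs turned for miR-17 (0.26, and 0.10 with 1 background) and miR-19a (0.52 and 0.25) before PHx under normexp, where the 216 untested miRNAs had a median diet difference of 0.77 and 0.44, against 0 otherwise, and where the fitted background was -578 and -72.7 on 2 arrays and -9.54 to 1.97 on the rest with spot backgrounds. MiR-17 after PHx stood at 0.011 with the 75th percentile over all probes. MiR-92a at 24 h stood at 0.042 without scaling, 0.15 with normexp, -0.20 to 0.055 without single arrays (above 0 without EtOH 24 h), 0.27 with the pool block and 0.050 with its other probe, and between later and earlier times at 0.023 with normexp and 0.013 with the pool block. MiR-17 over miR-19a by diet was -0.073 with normexp. The cause of these turns was not tested. The median of all tested miRNAs moved to -0.53 before PHx without scaling, 0.36 and 0.19 under the normexp settings, 0.19 after PHx and -0.12 at 12 h with the 75th percentile over all probes. All 5 products lay below that median before PHx without scaling, and after PHx with the 75th percentile over all probes. Under normexp miR-19a lay above the median before PHx (0.52 against 0.36 with spot backgrounds, 0.25 against 0.19 with 1 background). After PHx with spot backgrounds miR-20a (-0.394) and miR-92a (-0.382) lay just above a median of -0.396. MiR-19a at 9.61 to 29.8 is the product that signal over background limits most.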
